A study of Mus musculus with 6 samples.

Results

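The 9 genes described here set or mark the identity and the regional character of the intestinal epithelium. They are 7 transcription factors (Hnf4a, Hnf4g, Cdx1, Cdx2, Gata4, Gata6 and Onecut2) and 2 bile acid genes of the distal small intestine (Fabp6, Slc10a2). They were chosen by gene name from the 28752 genes of the deposited table, with earlier results of these data known, and all 9 had a row and passed the filter on low counts. RNA sequencing compared intestinal crypt stem cells that carried the vector (n = 3) with cells that overexpressed circEZH2_005, a circular RNA, after adenoviral infection (n = 3). The sample titles name intestinal crypt stem cells. The study's methods describe Lgr5+ crypt stem cells from Lgr5-GFP mice, in which a fluorescent protein reports the receptor Lgr5, grown as crypt-villus organoids. Those methods do not state whether the cells of these libraries were prepared in this way. Vector samples have the genotype WT in the labels and the others have circEZH2_005 overexpression. Per the labels, samples of both groups were infected for 72 h and then underwent hypoxia/reoxygenation (H/R), with 4 h at 2% O2, and the circular RNA itself was not analysed here. Mouse age and sex are not given in the labels, and the labels do not say whether the replicates came from separate animals or cultures, so p-values measure the spread between these samples only.

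The gut tube is patterned along its length by transcription factors that stay on in the adult epithelium. CDX2 is the homeodomain factor that sets intestinal against gastric fate, and CDX1 is its paralog of the crypt. HNF4A and HNF4G are paired nuclear receptors that drive enterocyte genes of fat absorption and of the brush border. GATA4 marks the proximal small intestine and holds ileal genes off there, GATA6 is made along the whole intestine, and ONECUT2 is a cut-homeodomain factor found towards the duodenum. In the ileum, SLC10A2 takes bile acids up from the lumen and FABP6 binds them inside the enterocyte.

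With circEZH2_005, none of these genes moved past the adjusted threshold: 0 of 9 had an adjusted p-value under 0.05 (edgeR's quasi-likelihood test, Benjamini-Hochberg over 18348 genes tested), where 3.67% of all genes tested did. At an unadjusted p-value under 0.05 there were 4, with Hnf4a and Fabp6 higher and Cdx1 and Onecut2 lower, beside 23.7% of all genes. DESeq2, run as an alternative, put 1 of 9 under an adjusted 0.05, which was Onecut2, where it called 13.4% of the 17015 genes to which it gave an adjusted p. The median log2 fold change (circEZH2_005 against vector, here and throughout) of the 9 genes was -0.0089, and that of all genes tested was 2.15e-05. For the 7 transcription factors the 95% intervals of the difference lay within a 2-fold change in either direction, whereas those of Fabp6 and Slc10a2 reached beyond it.

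The counts summed to between 71506487 and 79919893 per sample, so the number of samples rather than counting error limits the precision for these genes. Vector sample 2 stood apart from its group: its log2 CPM correlated across genes by 0.970 with both other vector samples, which correlated by 0.979 with each other, and by between 0.965 and 0.971 with the circEZH2_005 samples, where the other vector samples reached at most 0.964. Without it, 0 of the 9 genes passed the adjusted threshold as well. The labelled cell type was checked with markers. The epithelial marker Epcam was at 557 ± 8.39 FPKM (fragments per kilobase, scaled to the library, SD, n = 3) with vector and 586 ± 24.9 FPKM (SD, n = 3) with circEZH2_005. The stem cell receptor Lgr5 was at 1.39 ± 0.280 FPKM (SD, n = 3) and 0.713 ± 0.0723 FPKM (SD, n = 3). Olfm4, another gene of crypt stem cells, was at 550.0 ± 158 FPKM (SD, n = 3) and 389 ± 92.1 FPKM (SD, n = 3), and Krt20, a keratin of mature enterocytes, at 373 ± 8.14 FPKM (SD, n = 3) and 790 ± 158 FPKM (SD, n = 3). Transcripts of crypt and of differentiated cells were thus both measured in these libraries. In bulk RNA fewer cells of a type and less RNA per cell cannot be told apart. Leukocyte markers were present: none of the 10 was at 0 in a sample, and their summed level was between 64.3 and 166 CPM (the count relative to the library size, scaled with edgeR's TMM factors) with vector and between 219 and 382 CPM with circEZH2_005. The part of leukocyte RNA in the results given here was not tested.

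On the FPKM scale, where levels of different genes can be set side by side, the order of mean levels with vector was Hnf4a, Fabp6, Hnf4g, Cdx1, Cdx2, Gata4, Gata6, Onecut2 and Slc10a2. It ran from 187 FPKM for Hnf4a down to 4.23 FPKM for Slc10a2. Fabp6 overlapped its neighbours Hnf4a and Hnf4g, and Onecut2 overlapped Slc10a2, while the other neighbours held apart in every vector sample. With circEZH2_005, Fabp6 stood first at 422 FPKM and Cdx2 stood before Cdx1. Of the neighbours in that order, Cdx2 and Cdx1, and Onecut2 and Slc10a2, overlapped. Genes of the proximal end (Gata4, Onecut2) and of the ileum (Fabp6, Slc10a2) were therefore read in the same libraries.

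**Figure D1:**
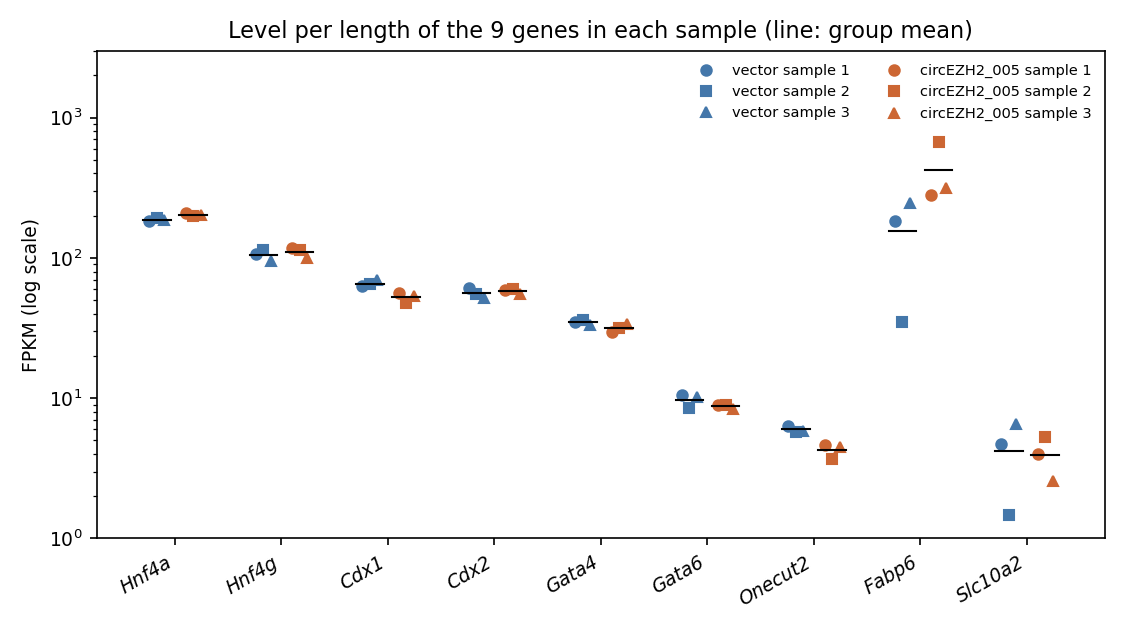
FPKM of each of the 9 genes (log axis) in the 3 vector samples (blue) and the 3 circEZH2_005 samples (orange), with a line at each group mean. The transcription factors lie close together within a gene, from Hnf4a near 200 FPKM to Onecut2 near 5 FPKM, while Fabp6 and Slc10a2 spread widely, with vector sample 2 the lowest of both.

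The HNF4 pair had the highest levels of the transcription factors. Hnf4a (chromosome 2, 163506808 to 163572905, plus strand, GRCm38) encodes the nuclear receptor that binds enterocyte enhancers. Its level was 974, 987 and 971 CPM with vector (samples 1, 2 and 3) and 1086, 1149 and 1146 CPM with circEZH2_005. Every circEZH2_005 sample was above every vector sample, a small difference beside a very narrow spread. The difference was 0.21 on the log2 scale (SE 0.08, 95% interval 0.02 to 0.39), and it missed the adjusted threshold (edgeR adjusted p = 0.171). The antisense gene Hnf4aos overlaps Hnf4a, and whether reads were counted by strand is not given in the sources used here. Hnf4aos had 39, 24 and 19 counts with vector and 85, 185 and 116 with circEZH2_005, whereas Hnf4a had 70544 or more in every sample.

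Hnf4g (chromosome 3, 3508030 to 3658052, plus strand) encodes the paralog that shares most HNF4A sites. Its level was 306, 322 and 269 CPM with vector and 330, 361 and 310 CPM with circEZH2_005, and the groups overlapped, since vector sample 2 lay above circEZH2_005 sample 3. The estimate was 0.16 on the log2 scale (SE 0.10, 95% interval -0.08 to 0.39, edgeR adjusted p = 0.404). Both HNF4 genes thus had estimates above 0 that the adjusted test did not tell from 0.

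The CDX pair had estimates in opposite directions. Cdx1 (chromosome 18, 61018862 to 61036199, minus strand), the crypt homeodomain gene, was at 120, 121 and 132 CPM with vector and at 105, 101 and 110 CPM with circEZH2_005. Every circEZH2_005 sample lay below every vector sample. On the log2 scale the difference was -0.24 (SE 0.08, 95% interval -0.42 to -0.06, edgeR adjusted p = 0.122). Cdx2 (chromosome 5, 147300805 to 147307270, minus strand), the gene of intestinal fate, was at 152, 132 and 126 CPM with vector and at 143, 164 and 148 CPM with circEZH2_005. These groups overlapped, because vector sample 1 was above circEZH2_005 samples 1 and 3. The estimate was 0.15 on the log2 scale (SE 0.10, 95% interval -0.08 to 0.38, edgeR adjusted p = 0.421).

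The GATA pair had the smallest estimates among the transcription factors. Gata4 (chromosome 14, 63198922 to 63271692, minus strand), the zinc finger factor of the proximal small intestine, was at 149, 151 and 139 CPM with vector and at 124, 148 and 154 CPM with circEZH2_005. The estimate was -0.042 on the log2 scale (SE 0.10, 95% interval -0.28 to 0.19, edgeR adjusted p = 0.846). Gata6 (chromosome 18, 11052064 to 11085635, plus strand) was at 75.2, 59.1 and 71.2 CPM with vector and at 62.6, 69.2 and 64.7 CPM with circEZH2_005, with an estimate of -0.063 on the log2 scale (SE 0.10, 95% interval -0.31 to 0.18, edgeR adjusted p = 0.770). For both genes the groups overlapped, and the sign of the estimate turned when single samples were left out, circEZH2_005 sample 1 for Gata4 (0.044) and vector sample 1 for Gata6 (0.0076).

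Onecut2 came nearest to the threshold. Onecut2 (chromosome 18, 64340020 to 64400987, plus strand) was at 113, 100 and 102 CPM with vector and at 81.1, 71.8 and 86.3 CPM with circEZH2_005. Every circEZH2_005 sample was lower than every vector sample. The log2 fold change of -0.40 (SE 0.10, 95% interval -0.62 to -0.17) had an adjusted p of 0.0616 by edgeR and of 0.0122 by DESeq2. Over 11 alternatives its size lay between -0.46 and -0.33 and its adjusted p between 0.0122 and 0.205, with DESeq2 the 1 alternative in which it passed.

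**Figure D2:**
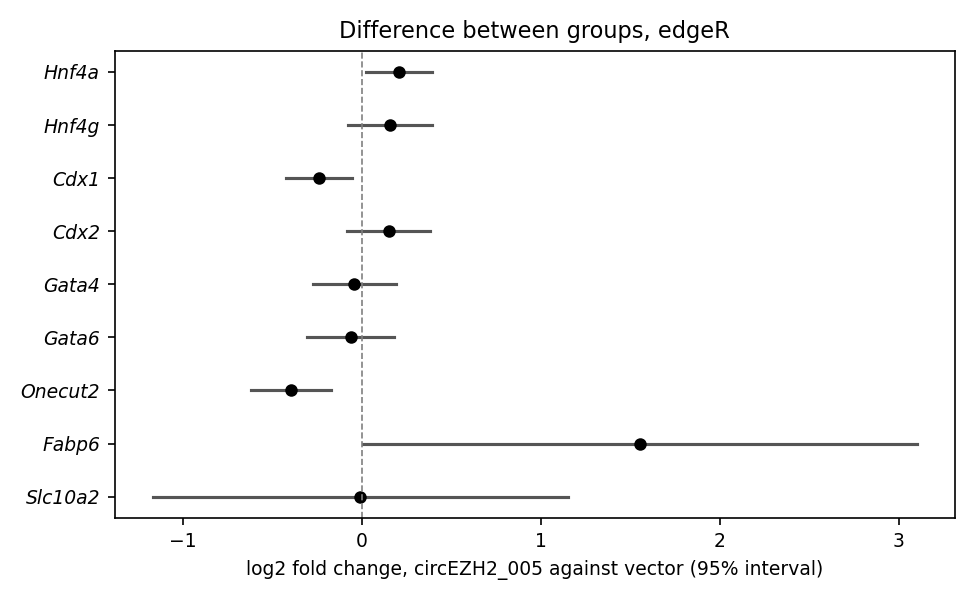
The log2 fold change of each of the 9 genes between circEZH2_005 and vector samples (points) with its 95% interval from edgeR's quasi-likelihood fit (bars), n = 3 per group. The transcription factors have narrow intervals near 0, with Onecut2 lowest at -0.40, and Fabp6 and Slc10a2 have wide ones around 1.55 and 0.

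In 4 of the 9 genes the groups did not overlap, where 30.6% of all genes tested had no overlap. Of these, 2 (Hnf4a and Fabp6) had every circEZH2_005 sample above every vector sample, where 16.4% of all genes tested did, and 2 (Cdx1 and Onecut2) had every one below, where 14.2% did. By the rule of a fold change over 2 with an unadjusted p-value under 0.05, which 6.22% of genes met as higher and 1.34% as lower with a fold under 0.5, Fabp6 was the 1 gene of the 9 to pass.

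Because HNF4A with HNF4G, GATA6 with GATA4 and CDX2 with CDX1 bind alike sites, the balance within each pair was also compared, as the ratio of FPKM within a sample. The ratio of Cdx2 to Cdx1 was 0.979, 0.847 and 0.744 with vector (samples 1, 2 and 3) and 1.05, 1.26 and 1.04 with circEZH2_005. On the FPKM scale Cdx1 was thus the higher of the pair in every vector sample and Cdx2 in every circEZH2_005 sample. Which gene was the higher rests on the length scaling. By CPM, which is not per length, Cdx2 was above Cdx1 in vector samples 1 and 2 as well (152 against 120 and 132 against 121). The difference was 0.39 on the log2 scale, from -0.23 ± 0.20 (SD, n = 3) to 0.16 ± 0.16 (SD, n = 3), with p = 0.1 in a two-sided exact permutation test, the smallest p that 3 samples against 3 allow, and 0.3 after adjustment over the 3 ratios. Leaving out single samples gave differences from 0.29 to 0.49.

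The balance in the other pairs did not separate the groups. Hnf4a exceeded Hnf4g by a ratio of 1.73, 1.67 and 1.96 with vector and of 1.79, 1.74 and 2.02 with circEZH2_005, a difference of 0.05 on the log2 scale (two-sided exact permutation test, p = 0.5, adjusted 0.75). Gata6 was at a ratio to Gata4 of 0.304, 0.234 and 0.307 with vector and of 0.302, 0.281 and 0.251 with circEZH2_005, a difference of -0.0092 on the log2 scale (two-sided exact permutation test, p = 0.8, adjusted 0.8).

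**Figure D3:**
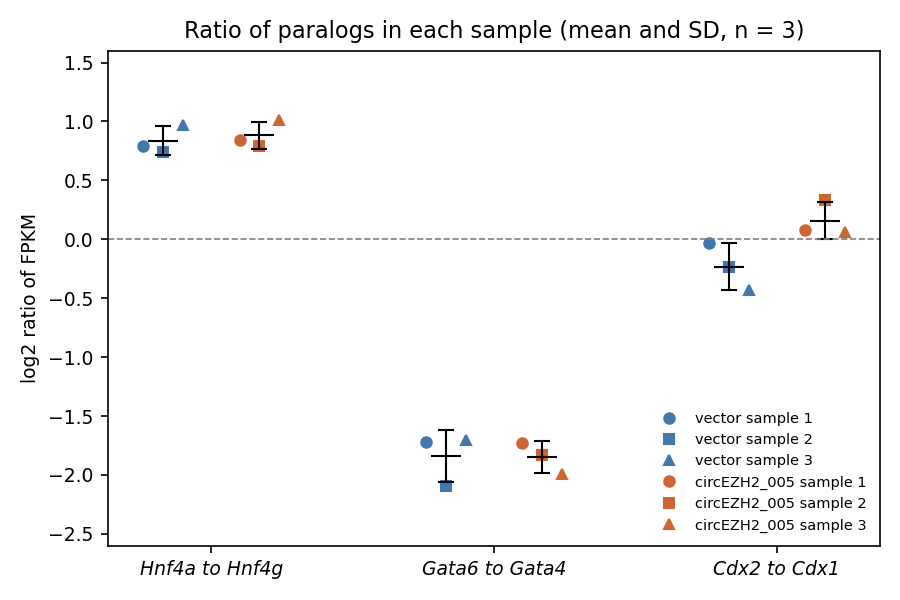
The log2 ratio of FPKM within each pair of paralogs in each sample, with the mean and SD of 3 samples per group. The ratio of Cdx2 to Cdx1 lies below 0 in the 3 vector samples and above 0 in the 3 circEZH2_005 samples, while the other pairs overlap.

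Fabp6 had the largest estimate and the widest spread. Fabp6 (chromosome 11, 43596049 to 43601540, minus strand), the ileal bile acid binding protein, was at 96.5, 17.8 and 127 CPM with vector and at 143, 386 and 179 CPM with circEZH2_005. Every circEZH2_005 sample was above every vector sample, but vector sample 2 was far below its group and circEZH2_005 sample 2 far above. The estimate was 1.55 on the log2 scale (SE 0.67, 95% interval 0.0030 to 3.10), which is 2.93-fold, and it missed the adjusted threshold (edgeR adjusted p = 0.210). The estimate was 1.08 without vector sample 2 (edgeR adjusted p = 0.179) and 1.00 without circEZH2_005 sample 2 (edgeR adjusted p = 0.533), and it rose to at most 2.04, without vector sample 3 (edgeR adjusted p = 0.254).

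Slc10a2 (chromosome 8, 5083219 to 5105351, minus strand), the sodium-dependent bile acid transporter of the ileal brush border, was at 21.3, 6.52 and 29.3 CPM with vector and at 17.8, 26.4 and 12.6 CPM with circEZH2_005. The groups overlapped fully, and vector sample 2 was again the lowest of all 6. On the log2 scale the difference was -0.0089 (SE 0.50, 95% interval -1.17 to 1.15, edgeR adjusted p = 0.994), and it moved to -0.42 without vector sample 2 and to 0.44 without vector sample 3. A difference of about 2-fold in either direction therefore could not be told from none in these samples.

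Both bile acid genes were lowest in vector sample 2. This was not particular to them, since other genes were also lowest there, among them Gata6 (59.1 CPM) and Epcam (1288 CPM). The sequence around gene starts was read for letters that gut transcription factors are known to bind. RefSeq windows of 300 bases (250 before to 50 after the start, GRCm38.p6) were read for 4 of the 9 genes (Hnf4a, with 2 windows, Cdx2, Fabp6 and Slc10a2), on both strands. The CDX letters TTTATG occurred in the windows of Fabp6 and Slc10a2, and in 11.9% of all 32851 windows. The letters of HNF1, an epithelial homeodomain factor (GTTAAT, any base, then ATT), occurred in that of Slc10a2 and in 0.399% of all windows. All letters were chosen after the windows were seen, so a match beside a low share of all windows is a description only. The matches printed here are written 5′ to 3′ on the minus strand, the strand of both genes, with the matched letters in capitals. They are shown because the levels of these genes varied most.
Fabp6, CDX letters on the opposite strand (chr11:43601656-43601685): tcctgcccacgtCATAAAatatcaagcaac
Slc10a2, CDX letters (chr8:5105392-5105421): ttctctggacgtTTTATGattcattatttg
Slc10a2, HNF1 letters on the opposite strand (chr8:5105489-5105518): tcctggcattAATTATTAACgtggctattt
Of the GATA letters, TGATAA occurred in the window of Slc10a2 (9.05% of all windows) and AGATAA in 1 of the 2 windows of Hnf4a (11.2%). The HNF4 letters CAAAGTCCA (0.475% of all windows) and the inverted repeat of the bile acid receptor FXR (AGGTCA, any base, then TGACCT, 0.00913%) occurred in none of these 5 windows. Only exact letters were searched, so a site that departs from them would be missed. Their absence therefore does not show that these windows lack such a site. Such matches describe letters only, and no binding was measured.

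The other genes of bile acid handling were read beside Fabp6 and Slc10a2. Fgf15, the hormone that ileal enterocytes release in response to bile acids, was at 0.953, 0.107 and 2.27 CPM with vector and at 1.75, 3.40 and 6.04 CPM with circEZH2_005, again lowest in vector sample 2, where it had 8 counts. That sample also had the highest summed leukocyte markers of the vector samples (166 CPM), and the part of this in the low bile acid genes was not tested. The estimate for Fgf15 was 1.74 on the log2 scale (SE 0.87, edgeR adjusted p = 0.278), from 1.20 without vector sample 2 and 1.21 without circEZH2_005 sample 3 to 2.81 without vector sample 3. The subunits of the basolateral bile acid exporter, Slc51a and Slc51b, had estimates of 0.48 (edgeR adjusted p = 0.326) and of 0.70 (edgeR adjusted p = 0.128, DESeq2 adjusted p = 0.0172), and both were lowest in vector sample 2. Nr1h4, the bile acid receptor, had one of 0.026 (edgeR adjusted p = 0.926). Of the 11 genes of this list that were tested, 1 rose and 0 fell, with a median log2 fold change of 0.48. The gene that rose was Cubn, which takes up vitamin B12 in the ileum rather than bile acids, at 2.43 on the log2 scale (SE 0.44, edgeR adjusted p = 0.0353). Its call was lost in 6 of 11 alternatives, among them the fits without vector sample 1 (adjusted p = 0.134), vector sample 3 (0.139), circEZH2_005 sample 2 (0.123) and circEZH2_005 sample 3 (0.0832). At an unadjusted p under 0.05, 5 of the 11 genes were higher and 1 lower, where 23.7% of all genes tested passed. DESeq2 called 4 higher and 0 lower, where it called 13.4% of all genes.

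**Figure D4:**
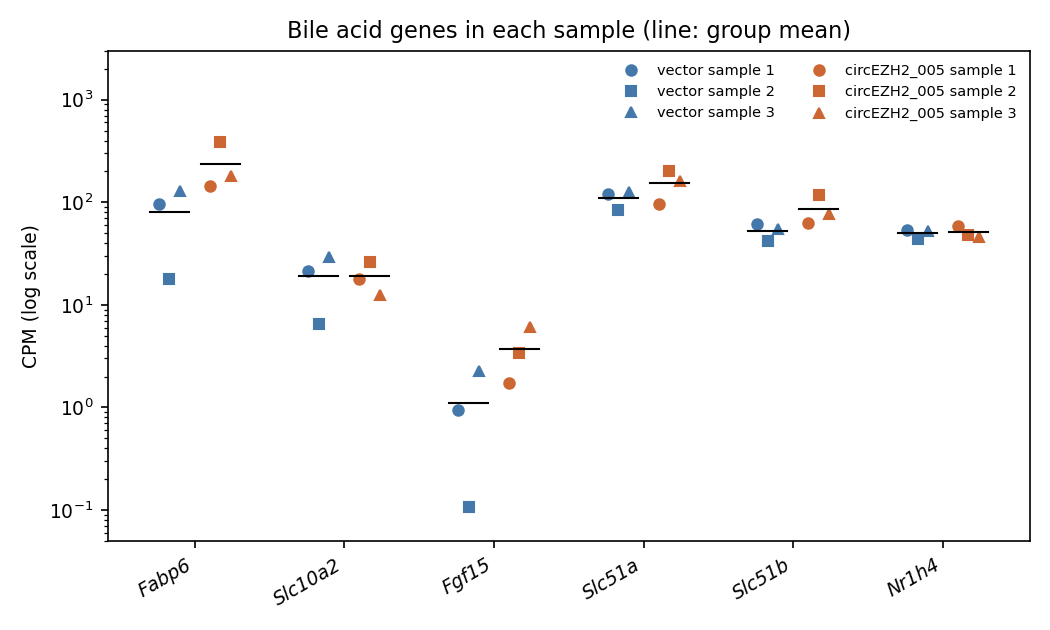
CPM (log axis) of 6 bile acid genes in the 3 vector samples (blue) and the 3 circEZH2_005 samples (orange), with a line at each group mean. Fabp6, Slc10a2 and Fgf15 are lowest in vector sample 2 (17.8, 6.52 and 0.107 CPM), and Nr1h4 differs little between samples.

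The spread between replicates set the transcription factors apart from the bile acid genes. For the 7 factors the coefficient of variation (SD as a percentage of the mean CPM) ran from 0.839% for Hnf4a to 12.2% for Gata6 with vector, and from 3.16% for Hnf4a to 11.1% for Gata4 with circEZH2_005. Over the 13349 genes with a mean of at least 1 CPM the median was 9.19% and 11.4%. For Fabp6 it was 70.1% and 55.6%, and for Slc10a2 it was 60.7% and 36.9%. With vector the highest Fabp6 sample was 7.14 times the lowest, whereas for Hnf4a it was 1.02 times.

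Among 20 other transcription factors of the gut epithelium, 2 rose and 0 fell by edgeR, with a median log2 fold change of 0.09. At an unadjusted p under 0.05, 7 were higher and 3 lower, where 23.7% of all genes tested passed. DESeq2 called 5 higher and 1 lower, where it called 13.4% of all genes. Klf4, a zinc finger factor of goblet and surface cells, had an estimate of 1.54 on the log2 scale (SE 0.18, edgeR adjusted p = 0.0138), and Prdm1, a repressor known from the fetal epithelium and from lymphocytes, one of 2.16 (SE 0.25, edgeR adjusted p = 0.0130). Leukocyte markers were higher in the same samples, and their part in the rise of Prdm1 was not tested. Elf3, an epithelial ETS factor with the highest FPKM of this list, was at 0.31 (edgeR adjusted p = 0.0847). The fits without vector sample 1 and without vector sample 3 lost the call of Klf4 (adjusted p = 0.0773 and 0.0880) and of Prdm1 (0.0662 and 0.0838), and the fit without circEZH2_005 sample 2 lost that of Prdm1 (0.0564).

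Of 12 genes of the proximal small intestine, 3 rose and 0 fell, with a median log2 fold change of 0.59. They were Apoc3, an apolipoprotein (1.76 on the log2 scale, edgeR adjusted p = 0.0138), Ada, the adenosine deaminase of the duodenum (1.27, edgeR adjusted p = 0.0301), and Apoa4, named after its values were seen to complete the count. Without vector samples 1 and 3 in turn the calls of Apoc3 (adjusted p = 0.0772 and 0.0841), Ada (0.106 and 0.0689) and Apoa4 (0.126 and 0.138) were lost, and without circEZH2_005 sample 2 as well (0.0630, 0.0785 and 0.0899). Ada and Apoa4 were also lost without circEZH2_005 sample 3 (0.0689 and 0.0722), and over all 11 alternatives Ada lost its call in 6 and Apoc3 in 3. Fabp1, the fatty acid binding protein with the highest FPKM of this list, was at -0.37 (edgeR adjusted p = 0.470). At an unadjusted p under 0.05, 7 of the 12 proximal genes were higher and 1 lower, where 23.7% of all genes tested passed. DESeq2 called 5 of them higher and 1 lower, where it called 13.4% of all genes. A list of 20 genes that CDX2 or HNF4 are known to drive held enterocyte genes and also Muc2, a mucin of goblet cells. Of these 20, 0 passed in either direction by edgeR, with a median log2 fold change of 0.28. At an unadjusted p under 0.05 there were 8, all higher, where 14% of all genes tested were, and DESeq2 called 8, all higher, where it called 9.25% of all genes as higher. The summed level of the 20 genes was 26627, 46456 and 35423 CPM with circEZH2_005 (samples 1, 2 and 3). With vector it lay between 27423 and 30614 CPM, so circEZH2_005 sample 1 was below every vector sample. Fabp2, which binds fatty acids in enterocytes, had the highest FPKM of the 20 and an estimate of 0.98 (edgeR adjusted p = 0.0622, DESeq2 adjusted p = 0.000139). Fabp2 passed in 2 of 11 alternatives, DESeq2 and the fit without circEZH2_005 sample 1 (edgeR adjusted p = 0.0156).

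Genes of the colon and the stomach did not pass in either direction by edgeR or by DESeq2, and 1 of them, a stomach gene with a lower estimate, had an unadjusted p under 0.05. Of 12 colon genes, 5 had a row and 3 were tested, and Car4, a carbonic anhydrase, was at -0.33 (edgeR adjusted p = 0.475) and at -0.59 without vector sample 2 (0.0486). Of 14 stomach genes 11 were tested, with a median log2 fold change of -0.29 and all 11 estimates below 0. Their summed level was between 56.1 and 101 CPM with vector and was 22.8, 76.5 and 101 CPM with circEZH2_005 (samples 1, 2 and 3). Only circEZH2_005 sample 1 thus lay below the vector samples. Gkn2, a gastrokine, was at -0.10 on the log2 scale (edgeR adjusted p = 0.931), at 0.34 without circEZH2_005 sample 1 and at 0.098 without vector sample 1.

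Markers of cell types were read in the same fit. Of 5 crypt stem cell markers, 2 fell and 0 rose: Lgr5 at -0.88 on the log2 scale (SE 0.18, edgeR adjusted p = 0.0434) and Smoc2 with -0.81 (SE 0.11, edgeR adjusted p = 0.0203). Lgr5 lost its call in 7 of 11 alternatives, among them every fit without 1 sample other than vector sample 2 (adjusted p from 0.0714 to 0.166). Smoc2 lost it in 4, which were the fits without vector samples 1 and 3 and circEZH2_005 samples 2 and 3 (0.0520 to 0.103). Of the others in this list, Ascl2 had -0.68 (edgeR adjusted p = 0.0921) and Olfm4 had -0.42 (edgeR adjusted p = 0.314). Axin2, a target of Wnt signalling, had the 1 estimate above 0, at 0.31 (edgeR adjusted p = 0.219). For 3 of the 5, Ascl2 among them, every circEZH2_005 sample lay below every vector sample, where 14.2% of all genes tested did. DESeq2 called 3 of the 5, all lower, where it called 13.4% of all genes in either direction. Of 6 epithelial markers, 2 rose and 0 fell: Krt20 with 1.18 (edgeR adjusted p = 0.0207) and Krt8 with 0.57 (edgeR adjusted p = 0.0301). Krt20 lost its call in 2 of 11 alternatives, without vector samples 1 and 3 (0.106 and 0.111). Krt8 lost it in 6, among them the fits without those samples (0.143 and 0.154) and without circEZH2_005 samples 2 and 3 (0.0625 and 0.0612). Of 10 leukocyte markers 0 passed by edgeR, 3 had an unadjusted p under 0.05 and 2 passed by DESeq2. All 10 estimates were above 0, with 1.68 for the pan-leukocyte gene Ptprc (edgeR adjusted p = 0.0756) and 1.79 for the T cell gene Cd8a (edgeR adjusted p = 0.0570). Of 7 fibroblast and muscle markers 0 passed by edgeR or DESeq2 and 0 had an unadjusted p under 0.05, and Col1a1 and Col3a1 were at or under 2.41 CPM on average in both groups. Of the 2 endothelial markers tested Pecam1, which leukocytes also make, rose by 1.93 on the log2 scale (edgeR adjusted p = 0.0377), a call lost in 7 of 11 alternatives, among them every fit without 1 sample other than vector sample 2 (0.0571 to 0.133).

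Over the 11 lists together, 9 of 106 genes tested rose and 2 fell, where 2.69% and 0.986% of all genes did. The lists were chosen with earlier results of these data known, so this is a description and cannot show enrichment. These counts depended on single samples. Without vector sample 1 or vector sample 3, 0 rose and 0 fell. Without circEZH2_005 samples 1, 2 and 3 in turn, 18, 2 and 4 rose, and 1, 0 and 0 fell. Without vector sample 2, 12 rose and 5 fell.

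**Figure D5:**
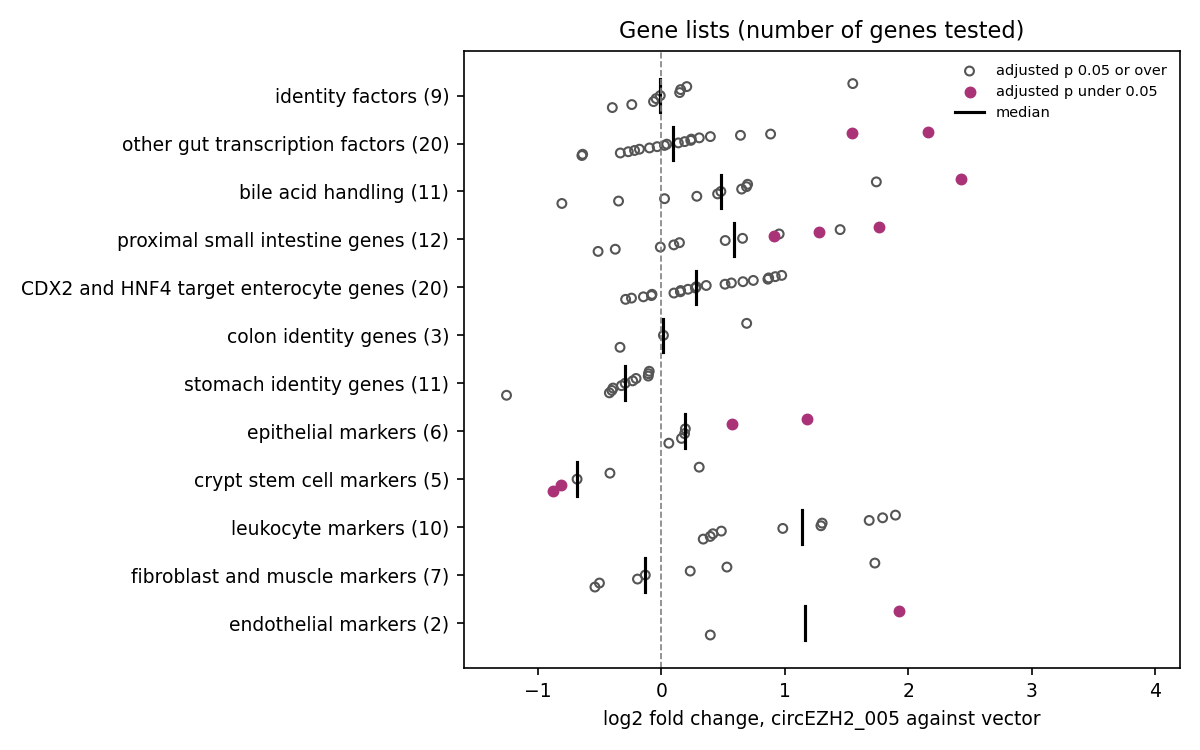
The log2 fold change between circEZH2_005 and vector samples of every tested gene of the 12 lists (points, filled where the adjusted p by edgeR is under 0.05), with the median of each list as a line and the number of genes tested in brackets. The 9 genes, labelled as identity factors, have no filled point, and their estimates other than that of Fabp6 lie between -0.40 and 0.21.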

How the data were processed

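Counts and FPKM values of 28752 genes in 6 samples (3 vector, 3 circEZH2_005) were used as deposited by the authors. The counts are not normalized. The FPKM values were computed by the authors before deposition. The submitters' processing notes name cutadapt 1.9, HISAT2 2.0.4, StringTie 1.3.4d and DESeq2, and the build mm10. The annotation, the counter, its strand setting and any filter are not given in the sources used here. Columns of the control are named as a negative control and were matched to vector samples by replicate number; 0 sample columns were left unused.

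Counts were filtered with filterByExpr (18348 genes), scaled with TMM and tested in edgeR 4.0.16 (R 4.3.3) with its quasi-likelihood test on the group alone, which was first checked on simulated data. SE is the estimate over the root of the F statistic, and p-values were adjusted by Benjamini-Hochberg across every gene tested. DESeq2 1.42.0, other scaling and filters, a replicate block and fits without each sample were alternatives. Totals of 71506487 to 79919893 counts mean that the sample number limits the precision.

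The genes and lists were chosen with earlier results of these data known, and the motif letters after the windows were seen. Named genes were the 9 genes, from each other list the 2 largest rises and 2 largest falls with an adjusted p under 0.05 and a mean of at least 1 CPM, the gene with the highest FPKM, and fixed markers and bile acid partners. Positions follow the table and were compared with GENCODE M21 (GRCm38).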

Additional observations from a re-analysis of the deposited data

How the results depend on the processing

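Over 11 alternatives, 3 of the 9 genes (Gata4, Gata6 and Slc10a2) changed direction and 1 (Onecut2, by DESeq2) changed its call. The number past the threshold was 0 in the main fit, 1 by DESeq2, 1 by unadjusted p with the fold change, and 0 in the other alternatives. With each sample left out in turn, the log2 fold change ran from -0.11 to 0.044 for Gata4, from -0.16 to 0.0076 for Gata6, from -0.42 to 0.44 for Slc10a2, from -0.51 to 0.34 for Gkn2, from -0.89 to 0.27 for Col3a1, from -0.71 to 0.28 for Col1a1 and from -0.086 to 0.091 for Nr1h4. The ratio differences ran from -0.016 to 0.12 for Hnf4a to Hnf4g, from -0.14 to 0.062 for Gata6 to Gata4 and from 0.29 to 0.49 for Cdx2 to Cdx1. The list genes that rose and fell, 9 and 2 in the main fit, were 4 and 1 without a filter, 27 and 5 by DESeq2, and between 0 and 18 and between 0 and 5 with a sample left out. Over all genes the calls were 674, against 169 without a filter, 2272 by DESeq2, 277 with the block and 28 to 1432 with a sample left out. The causes were not tested.

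The replicate numbers were not shown to pair the samples: deviations of same-numbered samples correlated by -0.14, -0.02 and 0.04 across genes, and the labels name no shared source. In the fit with a replicate block, Slc10a2 was at 0.13 on the log2 scale, and 4 list genes rose and 1 fell. None of the 9 genes changed its call.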

Other observations

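Fabp6 and Slc10a2 were both lowest in vector sample 2, as was Gata6. On the FPKM scale the ratio of Fabp6 to Slc10a2 was 39.2, 23.7 and 37.7 with vector (samples 1, 2 and 3) and 69.8, 127 and 123 with circEZH2_005, so every circEZH2_005 sample was above every vector sample. The group means of the log2 ratio were 1.65 apart, and 1.42 without vector sample 2. This ratio was chosen after its values were seen, so it is given as a description and without a test.

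Hnf4aos, the antisense gene that overlaps Hnf4a, rose by 2.23 on the log2 scale (SE 0.45, edgeR adjusted p = 0.0447), with 0.368 ± 0.153 CPM in vector and 1.72 ± 0.714 CPM in circEZH2_005 samples (SD, n = 3). It was looked at only because of the overlap, and without strand its reads cannot be told from those of Hnf4a.

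The genes whose log2 CPM followed one of the 9 genes most closely over the 6 samples were named for Onecut2 and Fabp6. This choice was made after the values were seen, since none of the 9 passed the adjusted threshold. The closest genes are given here. These were Sephs1, Gm6565 and Klhl23 for Onecut2 (Pearson's r of 0.998, 0.998 and 0.997) and Card9, Bicral and Gm15675 for Fabp6 (0.991 each), among 13348 genes compared. The best r of any of the 9 genes was at least 0.987. Each is the highest of 13348 values of r over only 6 samples, so a high r is a description only.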
